A study of Mus musculus with 33 samples.

Results

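NF-kappaB is a family of transcription factors, and 10 of its genes were followed here: the 5 subunits (*Nfkb1*, *Nfkb2*, *Rel*, *Rela* and *Relb*), 3 genes that encode inhibitors or modulators of the pathway (*Nfkbia*, *Tnfaip3* and *Bcl3*) and 2 survival and adaptor genes that NF-kappaB is known to induce (*Birc3* and *Traf1*). They were picked by their symbols, 10 of the 55376 gene symbols counted in every library. The cells, sorted from bone marrow, were GMPs (granulocyte–monocyte progenitors), CLPs (common lymphoid progenitors) and HSCs (hematopoietic stem cells) of old C57BL/6 male mice of 24 to 29 months, either untreated (O-WT) or given nicotinamide riboside (NR), a precursor of NAD+, in drinking water for 4 to 6 weeks (O-NR). Cohort 2 holds 24 total RNA libraries, 4 O-WT and 4 O-NR in each cell type. Cohort 1 holds 9 HSC libraries, of which 4 are O-NR, 2 are O-WT and 3 are from mice whose NR was withdrawn for 2 months (O-NR-RC). All groups were old, so the series has no young cells to set beside them here. One label field calls the myeloid cells common myeloid progenitors, while their titles call them GMPs, which is the name used below.

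In resting cells, NF-kappaB dimers are held in the cytoplasm by inhibitors such as IkappaB-alpha, the product of *Nfkbia*, and signals from cytokine and pathogen receptors release them by way of the IKK kinases. The canonical arm uses dimers of p50 (from *Nfkb1*) with RelA or c-Rel, and the non-canonical arm uses p52 (from *Nfkb2*) with RelB. Released dimers switch on their own inhibitors, among them *Nfkbia* and *Tnfaip3* (A20, a ubiquitin-editing enzyme), so the levels of these transcripts are often read as a trace of recent activity. In blood formation the pathway is known for roles in stem cell maintenance, in lymphocyte survival and in the inflammatory response of myeloid cells.

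Because several members are known targets of the factors they encode or restrain, the stretches around their start sites were searched for the κB consensus on both strands. RefSeq windows of GRCm38.p6, 250 bases before to 50 after a start, existed for 8 of the 10 members and for 27025 genes. A match stood in 5 of the 8 members, *Nfkb2*, *Rel*, *Nfkbia*, *Tnfaip3* and *Bcl3*, against 9.55% of all genes with a window. The following stretches of 30 bases are shown because they hold matches near the starts of these 5 genes, those at 10 and 2 after the start. Each runs 5′ to 3′ on the strand of its gene, the capitals mark the match, and the position is that of the first matched base relative to the start.
Nfkb2 (chr19:46304688-46304717, plus strand, -39): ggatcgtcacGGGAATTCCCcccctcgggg
Nfkb2, at a later start (chr19:46305695-46305724, plus strand, 10): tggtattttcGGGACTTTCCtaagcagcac
Rel (chr11:23771042-23771071, minus strand, -92): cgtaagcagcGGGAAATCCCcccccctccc
Nfkbia (chr12:55492657-55492686, minus strand, -29): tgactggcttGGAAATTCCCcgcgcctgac
Tnfaip3 (chr10:19015403-19015432, minus strand, -12): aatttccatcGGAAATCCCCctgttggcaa
Bcl3 (chr7:19822734-19822763, minus strand, 2): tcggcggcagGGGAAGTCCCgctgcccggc
A match at one position on both strands was counted once. Other matches in the same windows, such as those of *Nfkb2* at -11 and *Tnfaip3* at -125, are not shown. The windows of *Rela*, *Birc3* and *Traf1* held none, and a match is a description of the letters, not a site shown to be bound.

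Counted reads ranged from 4792380 to 23816042 per library. Markers followed the sorts: in cohort 2 the summed level of 6 HSC markers was 1135 to 1672 CPM in HSCs and at most 82.8 CPM in the other cells, 6 CLP markers reached 1725 to 4223 CPM in CLPs and at most 46.8 CPM elsewhere, and 6 GMP markers reached 16630 to 24860 CPM in GMPs and at most 515 CPM elsewhere. CPM are read counts normalised to library size, after scaling with edgeR's TMM method, done separately in each cohort, so that levels are compared only within a cohort. Reads from outside the transcripts of these cells were gauged by the olfactory and vomeronasal receptor genes. They summed to 832 to 8004 CPM in cohort 2 and 4281 to 14711 CPM in cohort 1, without TMM scaling. The receptor-gene covariate and correlations given below use this unscaled sum. Receptor-gene levels per kilobase, and the amounts taken off with them, are TMM-scaled. In 4 libraries of cohort 1, O-NR replicates 1 and 2 and O-NR-RC replicates 2 and 3, this sum was above 10000 CPM, and results from cohort 1 are given with and without them.

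All 10 members passed the filter on low counts in every comparison. Levels per kilobase divide by the merged length of all annotated exons of a gene, so the order between genes depends on that length. Per kilobase of exon, *Nfkbia* was highest in O-WT HSCs at 38.5 ± 4.8 CPM per kb (SD, n = 4), ahead of *Rela* at 23.2 ± 3.91. The next neighbours in that order, *Nfkb2* (12.3 ± 0.878), *Nfkb1* (12 ± 1.4) and *Bcl3* (10.8 ± 1.11), did not differ beyond their spread. In O-WT CLPs *Nfkbia* (15.6 ± 3.7) and *Rela* (13.3 ± 4.0) were within their spread of each other, and *Rel*, which was last in HSCs at 2.95 ± 0.245, came 4th at 7.92 ± 2.38. In O-WT GMPs *Rela* (16.4 ± 3.35), *Nfkbia* (14 ± 2.83) and *Nfkb1* (13.4 ± 2.18) led, while *Relb* (1.02 ± 0.112) and *Traf1* (0.513 ± 0.118) were lowest. The receptor genes themselves averaged 0.209 to 0.385 CPM per kb in the O-WT GMP libraries, so *Traf1* lay near that level there.

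**Figure D1:**
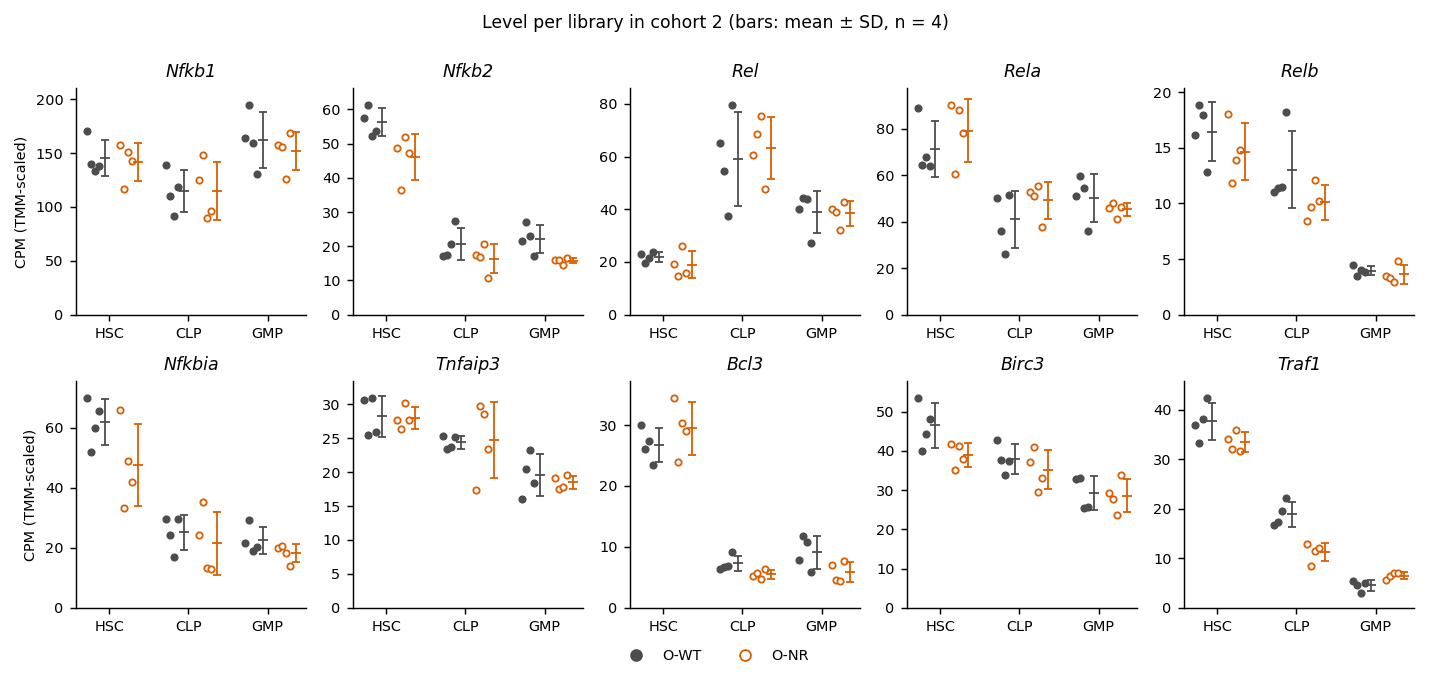
Level of each gene in CPM (TMM-scaled, y axis from 0) in every library of cohort 2, by cell type, with O-WT as filled and O-NR as open points; bars beside the points show mean ± SD of 4 libraries. *Nfkb2*, *Nfkbia*, *Bcl3* and *Traf1* are highest in HSCs, and *Rel* is highest in CLPs.

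The first comparison asks how the untreated cell types differ. The 4 O-WT libraries of each cell type carry the same 4 mouse numbers in the names of the deposited tables. In O-WT, 5 members were higher in HSCs than in CLPs, 1 was lower and 4 did not pass the test, and 8 were higher in HSCs than in GMPs, 1 was lower and 1 did not pass (edgeR's quasi-likelihood test, Benjamini-Hochberg adjusted over all genes tested). Between CLPs and GMPs 5 were higher in CLPs and 1 was lower. Over all 20044 genes tested, 30.3% were called between HSCs and CLPs (20.7% higher and 9.57% lower in HSCs), 46.8% between HSCs and GMPs (25.7% and 21.0%) and 62.1% between CLPs and GMPs (34.9% and 27.2%), so the 6 of 10 members called between CLPs and GMPs are a share near that of all genes. The libraries of the compared groups did not overlap for 7, 9 and 4 members, beside 29.2%, 41.3% and 45.4% of all genes. The comparisons share libraries and are not independent of each other. A bulk level cannot separate fewer cells that carry a transcript from less of it per cell.

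Among the subunits, the HSC side of the pattern was clearest for *Nfkb2*, which encodes p100, the precursor of p52 (chromosome 19, 46304320 to 46312385). Its level was 57.5, 61.3, 52.3 and 53.8 CPM in the O-WT HSC libraries. In CLPs it was 17.1, 17.5, 20.8 and 27.4 CPM, and in GMPs 21.5, 27.0, 23.1 and 17.1 CPM. The HSC libraries overlapped neither of the others. The log2 difference was 1.39 ± 0.17 (SE) against CLPs (adjusted p = 8.06e-08) and 1.38 ± 0.17 against GMPs (adjusted p = 4.8e-08). *Nfkb2* shares 299 exon bases with *Psd* on the opposite strand, which had 25 to 516 reads per library, and the strand setting of the counting is not stated.

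*Rel*, which encodes c-Rel (chromosome 11, 23736847 to 23770970), was the member with the opposite order. O-WT HSCs had 23.0, 19.7, 21.5 and 23.9 CPM. CLPs had 65.1, 54.4, 37.5 and 79.6 CPM, all above the HSCs. GMPs lay between them, at 40.3, 44.2, 43.8 and 27.1 CPM. *Rel* was lower in HSCs than in CLPs by a log2 difference of -1.47 ± 0.18 (adjusted p = 8e-08) and lower than in GMPs by -0.79 ± 0.18 (adjusted p = 0.000616). CLPs exceeded GMPs by 0.68 ± 0.18 (edgeR, adjusted p = 0.00221), with overlapping libraries. This call was lost without CLP O-WT replicate 4 (log2 difference 0.42) and with no filter on low counts (0.34). In cohort 2, fits that left out a library also needed a library fewer above the filter, so the library and the filter cannot be told apart. The lowest CLP value belonged to replicate 3, which also had the highest receptor-gene level of cohort 2.

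*Rela*, which encodes the main transactivating subunit p65 (chromosome 19, 5637483 to 5648130), had 63.9 to 89.2 CPM in O-WT HSCs against 26.1 to 51.8 CPM in CLPs and 35.8 to 59.9 CPM in GMPs. HSCs were higher than CLPs by 0.75 ± 0.18 (adjusted p = 0.0016) and higher than GMPs by 0.54 ± 0.18 (adjusted p = 0.0163), without overlap in either case. The latter call was lost with DESeq2's size factors in place of TMM (0.30, adjusted p = 0.315) and in 7 of the 12 fits that each leave out 1 library (HSC replicates 1 and 4, CLP replicate 4 and each GMP replicate, 0.28 to 0.48). *Relb*, the partner of p52 (chromosome 7, 19606217 to 19629438), separated GMPs from the rest. Its level was 16.1, 18.9, 18 and 12.9 CPM in HSCs, 11.1, 11.4, 11.5 and 18.2 CPM in CLPs, and 4.51, 3.47, 4.04 and 3.83 CPM in GMPs. No GMP library reached any HSC or CLP library. The GMP levels were 2.56 to 4.27 times what the receptor genes of the same libraries would give over the exon length of *Relb*. Taking that amount off left 2.33 to 3.38 CPM in GMPs, under the 11.4 to 16.2 CPM left in HSCs and 8.06 to 16.5 CPM in CLPs. The log2 difference was 2.08 ± 0.24 between HSCs and GMPs (adjusted p = 8.64e-09) and 1.80 ± 0.24 between CLPs and GMPs (adjusted p = 3.39e-07), while that between HSCs and CLPs was 0.28 ± 0.22 (adjusted p = 0.363).

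*Nfkb1*, which encodes p105, the precursor of p50 (chromosome 3, 135584655 to 135691547), varied least. It ranged from 133 to 170 CPM in HSCs, 91.9 to 139 CPM in CLPs and 130 to 195 CPM in GMPs, and these ranges overlapped. HSCs did not pass the test against either cell type. The difference of -0.42 ± 0.17 between CLPs and GMPs passed (adjusted p = 0.0357), but not with the mouse as a block (-0.42, adjusted p = 0.0579), and it vanished under upper quartile scaling (0.01). With the receptor-gene level as a covariate, an alternative chosen after seeing the data, it was -0.10 (adjusted p = 0.694).

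Put together per kilobase, the 5 subunit transcripts differed in their proportions. *Rela* was the largest share, with 42.3% ± 2.89 of the summed subunit level in O-WT HSCs, followed by 39.9% ± 1.46 in GMPs and by 34.1% ± 3.46 in CLPs (SD, n = 4). In O-WT HSCs *Nfkb2* held 22.5% ± 2.15 of that sum, in contrast to 12% ± 3.02 in CLPs and 11.8% ± 0.408 in GMPs. *Rel* held 5.42% ± 0.673 in HSCs, 20.2% ± 1.98 in CLPs and 12.7% ± 0.83 in GMPs, and its ranges did not overlap between any of the cell types. *Relb* held 2.57% ± 0.573 in GMPs, under its range in HSCs (6.56% to 9.09%) and CLPs (6.59% to 10.4%). These shares are a description and were not tested. They divide by the merged length of all annotated exons, 12061 bases for *Nfkb1* and 3072 for *Rela*. Without that division the mean of *Nfkb1* was above that of *Rela*, at 145.2 against 71.37 CPM in O-WT HSCs. In O-WT CLPs these means were 114.8 and 41.03 CPM, and in GMPs 162.2 and 50.34 CPM. The order of the subunits within a cell type thus depends on the length used.

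**Figure D2:**
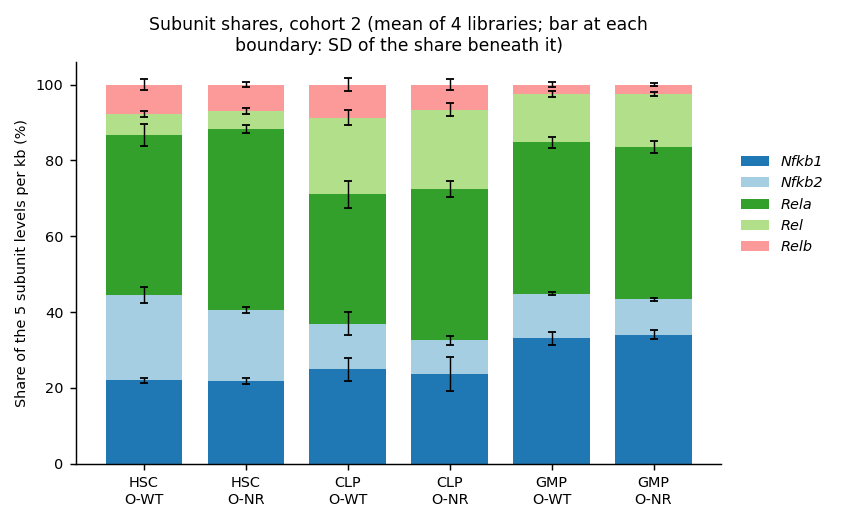
Share of each subunit in the summed level per kilobase of the 5 subunits (y axis, %), as the mean of 4 libraries for each cell type and treatment of cohort 2; the error bar at the top of each segment is the SD of that segment. The *Nfkb2* segment is widest in HSCs and the *Rel* segment in CLPs.

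*Nfkbia* and *Bcl3* were, like *Nfkb2*, highest in HSCs. *Nfkbia* (chromosome 12, 55489410 to 55492647) had 70.1, 52.1, 60.2 and 65.7 CPM in O-WT HSCs. CLPs had 29.7, 24.2, 17.1 and 29.6 CPM and GMPs 21.6, 29.2, 19.0 and 20.4 CPM, with no overlap with HSCs. The log2 difference was 1.25 ± 0.17 against CLPs (adjusted p = 4.43e-07) and 1.49 ± 0.17 against GMPs (adjusted p = 9.99e-09). *Bcl3*, an atypical IkappaB protein that binds p50 and p52 in the nucleus (chromosome 7, 19808462 to 19822770), had 30.1, 26.0, 27.5 and 23.5 CPM in HSCs. It had 6.35 to 9.12 CPM in CLPs and 5.95 to 11.8 CPM in GMPs. Every HSC library was thus above every other one, with log2 differences of 1.82 ± 0.22 (adjusted p = 3.35e-08) and 1.59 ± 0.21 (adjusted p = 1.77e-07).

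*Tnfaip3* (chromosome 10, 19000910 to 19015657) differed less, with 25.4 to 30.9 CPM in HSCs, 23.5 to 25.3 CPM in CLPs and 16.0 to 23.3 CPM in GMPs. It did not pass the test between HSCs and CLPs (0.16 ± 0.16, adjusted p = 0.499). It passed between HSCs and GMPs (0.56 ± 0.16, adjusted p = 0.00531) and between CLPs and GMPs (0.41 ± 0.16, adjusted p = 0.0343). The first call was lost with DESeq2's size factors (0.32, adjusted p = 0.239) and in 5 of 12 fits that leave out a library (HSC replicates 1 and 4, GMP replicates 1, 2 and 4, 0.36 to 0.47), and the second in all 12 (0.20 to 0.42).

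Of the survival and adaptor genes, *Traf1*, an adaptor of TNF receptor signaling (chromosome 2, 34941750 to 34961772), showed the widest range of all members. HSCs had 37.0, 33.4, 38.1 and 42.4 CPM. CLPs had 16.6, 17.3, 19.5 and 22.1 CPM and GMPs 5.42, 4.57, 3.05 and 5.05 CPM. The cell types did not overlap. HSCs exceeded CLPs by 0.94 ± 0.18 (adjusted p = 9.5e-05) and GMPs by 3.08 ± 0.20 (adjusted p = 2.71e-14), and CLPs exceeded GMPs by 2.14 ± 0.20 (adjusted p = 3.15e-10). The GMP levels were 1.29 to 2.48 times what the receptor genes of the same libraries would give over the 8819 exon bases of *Traf1*. *Birc3*, which encodes the ubiquitin ligase cIAP2 (chromosome 9, 7848699 to 7873186) and has the paralog *Birc2*, had 40.1 to 53.5 CPM in HSCs, 33.8 to 42.8 CPM in CLPs and 25.3 to 33 CPM in GMPs. It was higher than in GMPs by 0.70 ± 0.15 in HSCs (adjusted p = 0.000356) and by 0.46 ± 0.16 in CLPs (adjusted p = 0.0138). With DESeq2's size factors both calls were lost (0.46, adjusted p = 0.0834, and 0.28, adjusted p = 0.26). The call between CLPs and GMPs was also lost without HSC replicates 1 or 4, CLP replicates 1 or 4 or any GMP replicate (0.26 to 0.40).

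The scaling bears on every comparison with GMPs. The median log2 difference over all genes was 0.40 between O-WT HSCs and GMPs and 0.32 between CLPs and GMPs, against -0.04 between HSCs and CLPs. Relative to that median, *Traf1* was still 2.69 higher in HSCs than in GMPs, *Relb* 1.69, *Bcl3* 1.19, *Nfkbia* 1.10 and *Nfkb2* 0.98, and *Rel* was -1.18, while *Rela*, *Tnfaip3* and *Birc3* were 0.14, 0.17 and 0.30. With DESeq2's size factors in edgeR the median fell to 0.13, and of all genes called 3356 were higher and 5024 lower in HSCs, against 5161 and 4219 with TMM. In the comparison of CLPs with GMPs the split was 5880 higher and 6141 lower against 6993 and 5457. Between HSCs and CLPs it was 3199 and 2418 against 4153 and 1918, with the same number of members called, 6.

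The O-NR libraries, which come from other mice, gave the cell type differences a second reading. Between HSCs and CLPs 6 members were called in each treatment and all 6 were shared with the same direction (*Nfkb2*, *Rel*, *Rela*, *Nfkbia*, *Bcl3* and *Traf1*). Over all 18080 genes tested in O-NR, 40.8% were called in this comparison, 45.8% between HSCs and GMPs and 49.3% between CLPs and GMPs. Between HSCs and GMPs 8 members were called in O-NR, each shared with the 9 of O-WT, and between CLPs and GMPs 5, each shared with the 6 of O-WT. The member missing in both cases was *Birc3* (0.32 ± 0.15, adjusted p = 0.085 in HSCs and 0.32 ± 0.15, adjusted p = 0.0721 in CLPs, each against GMPs). *Bcl3* was 2.27 ± 0.22 higher in O-NR HSCs than in CLPs (adjusted p = 9.97e-10), and *Rel* was -1.87 ± 0.18 (adjusted p = 1.14e-09).

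**Figure D3:**
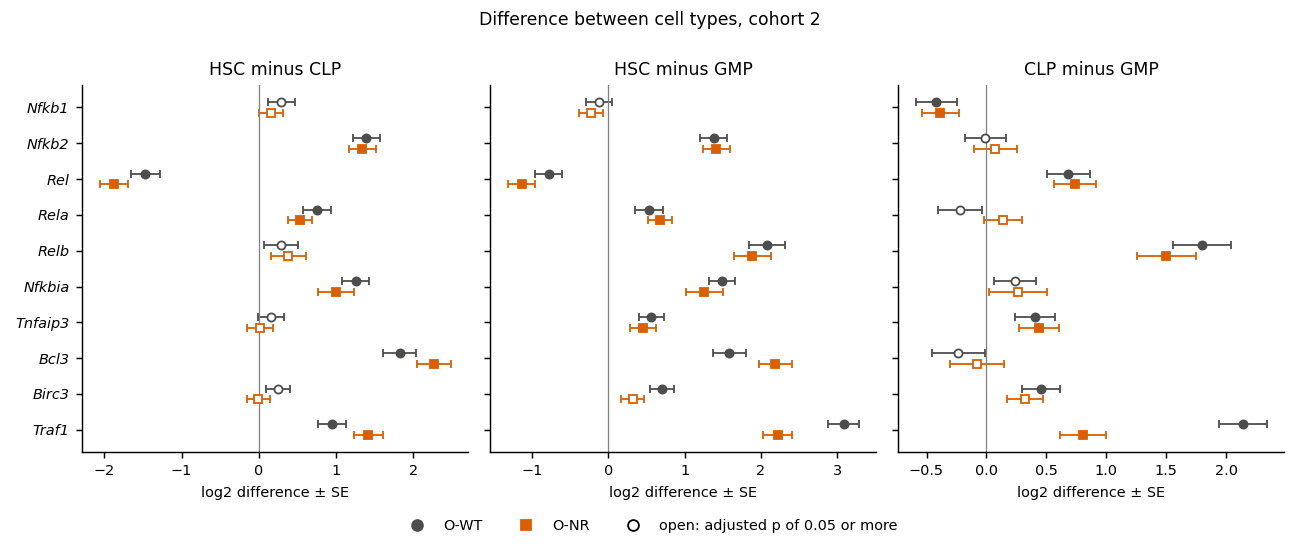
Log2 difference between cell types (x axis, ± SE) for each gene in cohort 2, in O-WT (circles) and O-NR (squares), filled where the Benjamini-Hochberg adjusted p was below 0.05. *Rel* is the member on the negative side against both CLPs and GMPs, and the O-WT and O-NR values of *Traf1* differ most in the CLP minus GMP panel (2.14 and 0.81).

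Other genes of the pathway were counted from 6 lists with 80 genes in all. Of 68 that could be tested in O-WT, 26 were higher and 7 lower in HSCs than in CLPs, 18 were higher and 14 lower in HSCs than in GMPs, and 17 were higher and 33 lower in CLPs than in GMPs. These are 48.5%, 47.1% and 73.5% of the 68, beside 30.3%, 46.8% and 62.1% of all genes, so that the share between HSCs and GMPs is near that of all genes. The list of 10 receptors had 5 higher and 2 lower in HSCs than in CLPs, among them *Tnfrsf1a*, the main TNF receptor (1.38 ± 0.18, adjusted p = 1.85e-07), and *Ltbr*, the lymphotoxin receptor that feeds the non-canonical arm (1.48 ± 0.19, adjusted p = 1.88e-07). Its median difference was 0.67, beside -0.04 for all genes. The IL-1 receptor *Il1r1* went the other way (-1.07 ± 0.20, adjusted p = 4.84e-05). Against GMPs these orders differed. *Ltbr* was lower in HSCs (-0.50 ± 0.18, adjusted p = 0.0235 by edgeR), with means of 27.3 CPM in HSCs and 39.6 CPM in GMPs. *Il1r1* was higher in HSCs than in GMPs (1.10 ± 0.20, adjusted p = 3.285e-05 by edgeR). *Tnfrsf1a* averaged 58.55 ± 10.18 CPM in HSCs and 78.8 ± 15.32 CPM in GMPs (SD).

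Of 8 ligands 5 could be tested. *Ltb*, which encodes lymphotoxin beta, averaged 1.15 ± 0.443 CPM in O-WT GMPs, 4.78 ± 1.31 CPM in CLPs and 32.5 ± 5.81 CPM in HSCs (SD, n = 4), and it was higher in HSCs in both comparisons (2.71 ± 0.25, adjusted p = 1.15e-10, and 4.83 ± 0.28, adjusted p = 2.9e-15). Of 12 IKK and upstream kinases 2 were higher and 3 lower in HSCs than in GMPs, with *Map3k8* (2.30 ± 0.22, adjusted p = 2.38e-10) and *Map3k14*, the NIK kinase of the non-canonical arm (0.86 ± 0.18, adjusted p = 0.000144), on the HSC side and *Chuk*, which encodes IKK-alpha, on the GMP side (-0.74 ± 0.16, adjusted p = 0.000266). The median of this list was -0.07, beside 0.40 for all genes.

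Of 13 further IkappaB proteins and negative regulators 5 were higher in HSCs than in CLPs and none was lower, led by *Tnip2* (1.69 ± 0.17, adjusted p = 1.52e-09), while 2 were higher and 8 lower in CLPs than in GMPs. Against GMPs this list was split, with 4 higher and 3 lower in HSCs and a median of -0.10, beside 0.40 for all genes. *Nfkbiz*, which encodes a nuclear IkappaB protein, was higher in HSCs than in GMPs (1.87 ± 0.17, adjusted p = 7.75e-11). Of 15 adaptors and ubiquitin ligases 6 were higher and 2 lower in HSCs than in CLPs, and 2 were higher and 4 lower in HSCs than in GMPs. Of 22 other known targets 13 could be tested, with 5 higher and 2 lower in HSCs than in CLPs and 5 higher and 3 lower than in GMPs. *Tnfaip2* was higher in HSCs than in CLPs (2.33 ± 0.23, adjusted p = 4.66e-10), and *Vcam1* was lower in HSCs than in GMPs (-1.86 ± 0.24, adjusted p = 7.01e-08).

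Immediate early genes, which rise when cells are handled, moved with these cell types as well. Their summed level over 13 genes was 236 to 343 CPM in O-WT HSCs, 119 to 193 CPM in CLPs and 82.3 to 173 CPM in GMPs, and 7 of 12 tested were higher and none lower in HSCs than in GMPs (5 higher and 1 lower than in CLPs). Neutrophil markers moved too: 7 of them summed to 11.5 to 15.5 CPM in O-WT HSCs, 41.5 to 178 CPM in CLPs and 24.7 to 52.6 CPM in GMPs, and each of the 6 tested was lower in HSCs than in CLPs. The part of either list in the member differences was not tested.

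The second comparison asks whether NR changed the members. No member passed the adjusted threshold in HSCs, CLPs or GMPs of cohort 2, and neither did any gene (0.0% of 17364, 19909 and 13486 tested). DESeq2 called no member either. At an unadjusted p below 0.05, 4 of 10 members were lower in O-NR HSCs (DESeq2: 3), against 1.77% of all genes lower and 3.84% in either direction. In CLPs 1 member was below that level (DESeq2: 1), against 3.21% of all genes, and in GMPs 3 were (DESeq2: 3), against 4.8%. The log2 fold change was below 0 for 8 members in HSCs, 8 in CLPs and 7 in GMPs, beside 54.6%, 50.7% and 50.6% of all genes. The 5 members below 0 in each cell type were *Nfkb1*, *Nfkb2*, *Relb*, *Nfkbia* and *Tnfaip3*. The cell types come from the same mouse numbers, so they are not independent counts of direction.

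*Nfkb2* was the one member with an unadjusted p below 0.01 in both HSCs and GMPs. O-NR HSCs had 48.8, 36.4, 51.9 and 47.2 CPM, all under the lowest O-WT value of 52.3 CPM, by 0.4 CPM for the closest pair. The log2 fold change was -0.34 ± 0.11 (unadjusted p = 0.0078, adjusted p = 0.995 by edgeR's quasi-likelihood test). O-NR GMPs had 16.0, 16.0, 14.6 and 16.5 CPM, under the lowest O-WT value of 17.1 CPM, with a log2 fold change of -0.43 ± 0.10 (unadjusted p = 0.000798, adjusted p = 0.71). In CLPs the groups overlapped (-0.38 ± 0.22, unadjusted p = 0.0976). Groups without overlap in either direction were found for 1 member and 2.14% of all genes in HSCs, 2 members and 2.4% in CLPs, and 2 members and 1.42% in GMPs. Over the alternatives the value stayed between -0.38 and -0.26 in HSCs and between -0.47 and -0.39 in GMPs, and in CLPs it lay between -0.50 and -0.21.

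*Nfkbia* had 65.8, 33.4, 49.0 and 41.9 CPM in O-NR HSCs, so that replicate 1 lay within the O-WT range (52.1 to 70.1 CPM) and the other 3 under it. Its log2 fold change was -0.43 ± 0.15 in HSCs (unadjusted p = 0.0118, adjusted p = 0.995), -0.27 ± 0.24 in CLPs and -0.25 ± 0.13 in GMPs. The alternatives gave values between -0.61 and -0.31 for HSCs, between -0.58 and -0.09 for CLPs, and between -0.32 and -0.15 for GMPs. *Birc3* had 41.8, 35.2, 41.2 and 37.9 CPM in O-NR HSCs, overlapping O-WT at its lowest library (40.1 CPM), with a log2 fold change of -0.30 ± 0.10 (unadjusted p = 0.00817). *Bcl3* was at 6.95, 4.62, 4.46 and 7.63 CPM in O-NR GMPs against 7.87, 11.8, 10.8 and 5.95 CPM in O-WT, which overlapped (-0.56 ± 0.23, unadjusted p = 0.028). In CLPs its O-NR libraries (4.71 to 6.33 CPM) lay just under the O-WT ones (6.35 to 9.12 CPM).

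*Traf1* went in opposite directions in the 2 progenitors. O-NR CLPs had 12.8, 8.53, 11.5 and 12.1 CPM, all under the O-WT CLPs (16.6 to 22.1 CPM), with a log2 fold change of -0.79 ± 0.23 (unadjusted p = 0.00153, adjusted p = 1.00). O-NR GMPs had 5.61, 6.37, 6.98 and 7.07 CPM, all above the O-WT GMPs (3.05 to 5.42 CPM), with 0.57 ± 0.25 (unadjusted p = 0.0408, adjusted p = 0.997). HSCs had a small value on the lower side (-0.22 ± 0.10, unadjusted p = 0.0474). The difference of the NR effect between CLPs and GMPs was -1.28 ± 0.26 (unadjusted p = 1.53e-05, adjusted p = 0.345 over 22573 genes), and it ranged from -1.42 to -1.12 over all alternatives. No member passed the adjusted threshold in any of the 3 tests of a difference between cell types, where 0.00443%, 0.00443% and 0.0% of all genes did and where 1, 2 and 1 members had an unadjusted p below 0.05 (DESeq2: 1, 2 and 1), beside 2.38%, 1.42% and 3.56% of all genes.

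The *Traf1* levels rest on 93 to 272 reads per CLP library and 37 to 86 reads per GMP library. Taking off what the receptor genes of the same library would give over its exon length left 11.6 to 18.2 CPM in O-WT and 5.09 to 8.76 CPM in O-NR CLPs, still without overlap. In GMPs it left 0.686 to 2.87 CPM in O-WT and 2.85 to 4.28 CPM in O-NR, which then overlapped. With the receptor-gene level as a covariate the log2 fold change was -0.76 in CLPs and 0.44 in GMPs. The 7 neutrophil markers summed to 41.5 to 178 CPM in O-WT and 13.9 to 138 CPM in O-NR CLPs. The 6 of them tested had a median log2 fold change of -0.72, with 2 at an unadjusted p below 0.05 and none past the adjusted threshold. Over the 24 libraries of cohort 2, less their group means, *Traf1* had an r of -0.30 with that sum, and the part of these cells in its CLP values was not tested.

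**Figure D4:**
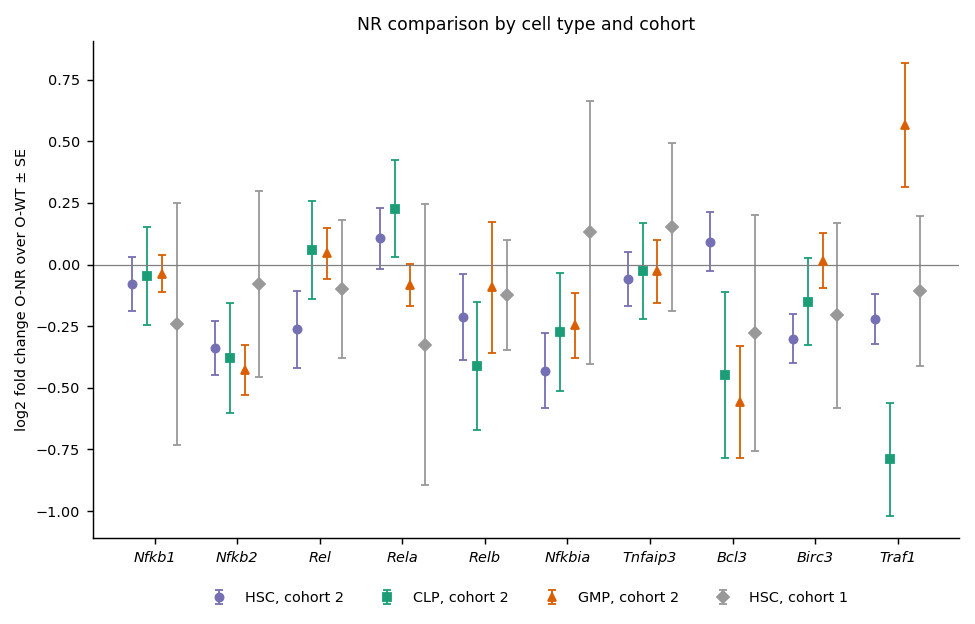
Log2 fold change of O-NR over O-WT (y axis, ± SE) for each gene in HSCs, CLPs and GMPs of cohort 2 and in HSCs of cohort 1. *Nfkb2* is below 0 in the 3 cell types of cohort 2, and *Traf1* is -0.79 in CLPs and 0.57 in GMPs.

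Of the 80 other pathway genes, none passed the adjusted threshold for NR in any cell type. At an unadjusted p below 0.05 (edgeR) were 2 of 65, 3 of 67 and 4 of 58 in HSCs, CLPs and GMPs. Of all genes, 3.84%, 3.21% and 4.8% were. The immediate early genes summed to 229 to 345 CPM in O-NR HSCs, which overlapped O-WT.

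Cohort 1 asks whether the HSC values recur and what follows the withdrawal of NR. Neither the comparison of O-NR with O-WT, nor that of O-NR-RC with O-NR or with O-WT, gave a member an unadjusted p below 0.05 by edgeR or DESeq2, and no gene passed the adjusted threshold (0.0% of 33350 in each). Of all genes 0.546%, 0.291% and 0.795% had an unadjusted p below 0.05. Groups without overlap were found for 0, 0 and 1 members (*Relb*, lower in O-NR-RC than in O-WT), beside 5.84%, 1.22% and 8.1% of all genes. *Nfkb2* had 36.1 and 41.0 CPM in O-WT, 24.4, 24.4, 50.6 and 46.1 CPM in O-NR, and 43.5, 22.5 and 30.0 CPM in O-NR-RC. *Nfkbia* had 42.2 and 50.9 CPM in O-WT, 29.9, 21.1, 89.0 and 63.9 CPM in O-NR, and 65.0, 32.6 and 26.3 CPM in O-NR-RC. Within O-NR and O-NR-RC the libraries thus fell on both sides of O-WT. The 7 neutrophil markers summed to 42.2 to 60.1 CPM in O-WT, 37.9 to 49.2 CPM in O-NR and 65.4 to 102 CPM in O-NR-RC. Their median log2 difference was 0.78 for O-NR-RC against O-NR, with 5 of 7 at an unadjusted p below 0.05, and 0.65 against O-WT, with 4 of 7. The 6 erythroid markers summed to 22.9 to 67.0 CPM, 18.4 to 20.8 CPM and 18.8 to 120 CPM in the same order. Of these 5 were tested, with a median of -1.94 for O-NR against O-WT (2 at an unadjusted p below 0.05) and 2.45 for O-NR-RC against O-NR (3). The median erythroid sum was 19.25 CPM in O-NR-RC, beside 18.99 CPM in O-NR, so the rise in O-NR-RC rests on 1 library. The 2 O-WT libraries also stood apart, at 22.9 and 67.0 CPM. No marker of either list passed the adjusted threshold, and their part in the member values was not tested.

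These sides followed the receptor-gene level. For 8 of the 10 members every one of the 4 libraries above 10000 CPM lay under all 5 others (*Rel* and *Tnfaip3* overlapped), as did 28.4% of all genes, while 23.8% lay over them. *Rela* was 30.2 to 36.6 CPM in those 4 and 66.3 to 121 CPM in the other 5. *Bcl3* was 11.3 to 13.3 CPM against 21.2 to 40.1 CPM. *Nfkb1* was 95.2 to 105 CPM against 154 to 230 CPM.

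**Figure D5:**
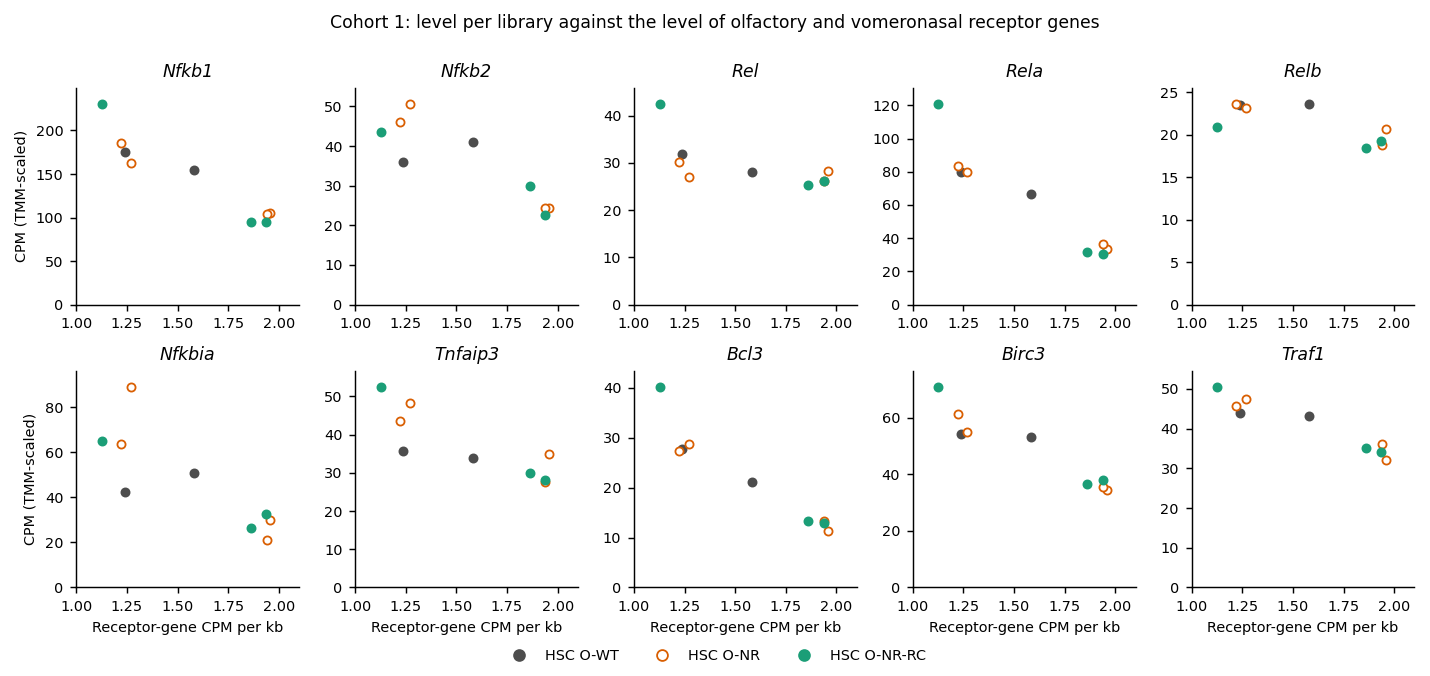
Level of each gene in CPM (y axis, from 0) in the 9 HSC libraries of cohort 1 against the CPM per kilobase of the olfactory and vomeronasal receptor genes (x axis), colored by group. Both axes are TMM-scaled. The 4 libraries on the right, of which 2 are O-NR and 2 O-NR-RC, are the lowest for 8 of the 10 genes.

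Leaving out these 4 libraries, a choice made after seeing the data, left 1 library of O-NR-RC and 2 each of O-WT and O-NR, and the lone one was assumed to vary like the others. The sign changed for 6 of 10 members in O-NR against O-WT, 2 in O-NR-RC against O-NR and 7 in O-NR-RC against O-WT. *Nfkbia* was then higher in O-NR than in O-WT by 0.69 ± 0.16 (unadjusted p = 0.00015, adjusted p = 0.0537 by edgeR), where all libraries gave 0.13 ± 0.53. *Rela* and *Bcl3* were 0.61 ± 0.18 (adjusted p = 0.0572) and 0.59 ± 0.18 (adjusted p = 0.061) higher in O-NR-RC than in O-WT, where all libraries gave -0.27 ± 0.60 and -0.14 ± 0.51. *Nfkb2* was 0.30 ± 0.15 higher in O-NR than in O-WT, the opposite side from cohort 2. The test of a difference in the NR effect between the cohorts gave no member an unadjusted p below 0.05 (edgeR and DESeq2; 1.91% of all genes by edgeR), with differences from -0.51 to 0.48.

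Across the 24 libraries of cohort 2, after taking off the mean of each group, the members moved together only in part. Of 45 pairs 38 had a Pearson r above 0 and 11 above 0.5, with a median of 0.35. The share of all gene pairs above these values was not counted, so these counts do not set the members apart from other genes. *Rel* and *Rela* were closest (0.86), and *Tnfaip3* and *Traf1* farthest (-0.55). For 5 members, *Nfkb1*, *Rel*, *Rela*, *Nfkbia* and *Birc3*, r with the log2 receptor-gene level was below -0.7, and that level is shared by all genes of a library. The erythroid markers summed to 2.60 to 16.4 CPM in cohort 2. For the same 5 members r with that sum was -0.80 for *Nfkbia*, -0.69 for *Nfkb1*, -0.67 for *Birc3*, -0.57 for *Rel* and -0.53 for *Rela*. The other members had an r between -0.26 and 0.075. With the summed immediate early genes it ranged from 0.12 for *Tnfaip3* to 0.71 for *Birc3*, and was 0.63 for *Rela*, 0.62 for *Rel* and 0.59 for *Nfkb1*. *Nfkbia* also had an r of 0.68 with the summed dendritic markers, -0.55 with the monocyte markers and 0.50 with the neutrophil markers. The part of these lists was not tested. The 2 genes most like each member by the same r, among 22573, were *Tmem43* and *Hadha* for *Nfkb1* (0.94 and 0.94), *Acot9* and *Uckl1* for *Nfkb2* (0.92 and 0.87), *Zbed3* and *R3hdm4* for *Rel* (0.92 and 0.91), *Oga* and *Kdm3b* for *Rela* (0.96 and 0.95), and *Cradd* and *Gm43961* for *Relb* (0.71 and 0.68). They were *Crlf2* and *Atxn7l3b* for *Nfkbia* (0.92 and 0.91), *Btd* and *Vasn* for *Tnfaip3* (0.81 and 0.80), *Tmem50b* and *Haus1* for *Bcl3* (0.83 and 0.80), *Ndufa10* and *Bag5* for *Birc3* (0.87 and 0.87), and *Zfp354b* and *Cep126* for *Traf1* (0.76 and 0.75). These values describe 24 libraries and carry no test.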

How the data were processed

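HSCs, CLPs and GMPs were profiled in 33 total RNA libraries, grouped by the sample labels. Each library was taken as 1 mouse, which the sources do not state, so p-values measure the spread between libraries. After trimming, the authors mapped reads to mm10 by STAR and assigned them to Gencode M22 genes by featureCounts, and the deposited values are whole counts per gene symbol without normalization; the strand setting was not given in the sources used here. Exon lengths, merged over all annotated exons of a gene, and positions are those of Gencode M21, in which 54510 of 55376 symbols were found. With R 4.3.3 and edgeR 4.0.16, a gene was kept if at least 4 libraries (2 in cohort 1) exceeded 3 CPM, and counts were scaled with TMM and tested by quasi-likelihood, with p adjusted over all genes tested and called below 0.05. Each cell type was fitted alone for NR, each treatment's 12 libraries for the cell types, the 24 libraries of cohort 2 for differences in NR effect, and the 9 of cohort 1 as one set. Log2 CPM used a prior count of 2. Alternatives were RLE scaling (DESeq2's size factors within edgeR) and upper quartile scaling, no filter, DESeq2 1.42.0, a replicate block and each library left out, and, chosen after seeing the data, a receptor-gene covariate and the omission of 4 libraries. Fits of cohort 2 alone that left out 1 library needed 1 library fewer above 3 CPM. So did cohort 1 fits without an O-WT library or without those 4. The fits of 3 comparisons were tested on simulated data with changes larger than any NR value of a member given here. They do not show how often changes of the size of these NR values would be found. No pair of libraries had identical counts. Between libraries of a group, the chi-square of counts per degree of freedom ranged from 1.91 to 92.7, and no threshold was set for it. The lowest value was for a pair of O-NR HSCs of cohort 1, and the lowest in any other group was 2.61. The members, the pathway, immediate early and marker gene lists were chosen with earlier results of these data known. The text names all 10 members, every other pathway gene called for NR (none was) or up to 2 per list and direction between O-WT cell types, with the genes closest in correlation to each member. Replicate numbers match the mouse numbers in the names of the cohort 2 tables across cell types, where the mean correlation of the deviations of same-numbered libraries was -0.02 in O-WT and -0.03 in O-NR, and that pairing was the block there.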

Additional observations from a re-analysis of the deposited data

Results flagged for a closer look

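*Rela* in O-WT HSCs of cohort 2 stood at 89.2 CPM in replicate 1, far from the other 3 libraries (63.9 to 67.8 CPM), and *Relb* in O-WT CLPs stood at 18.2 CPM in replicate 4, far from the others (11.1 to 11.5 CPM). The gap to the nearest library took 0.846 and 0.936 of the group's range, above Dixon's 95% critical value for 4 libraries. These were 2 of 70 groups of 4 tested, and chance gives about 1 in 20. Without these libraries, and with the lower filter of those fits, *Rela* was no longer called between O-WT HSCs and GMPs (0.28), and *Relb* stayed called between O-WT CLPs and GMPs (1.49).

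The NR value of *Traf1* was -0.789 on the log2 scale in CLPs and 0.565 in GMPs, with every O-NR library below every O-WT library in the former and above in the latter. The difference itself was tested and did not pass after adjustment (edgeR, adjusted p = 0.345).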

How the results depend on the processing

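No member was called for NR or for a difference in NR effect under any alternative. Of 372 member values under alternatives other than leaving out 1 library, 335 kept their direction and side of the threshold, 27 lost the call and 10 changed sign. The number called between O-WT CLPs and GMPs fell from 6 to 2 with no filter, and that between O-NR CLPs and GMPs rose from 5 to 8 under upper quartile scaling; that between O-WT HSCs and GMPs fell from 9 to 6 with no filter and with DESeq2's size factors in edgeR, and to 7 with DESeq2. Without 1 library the counts between CLPs and GMPs ranged from 3 to 5 in both treatments, with 3 without CLP O-WT replicate 4 or GMP O-WT replicate 2 and without GMP O-NR replicates 1, 2 or 4. These fits also needed 1 library fewer above the filter, so the library and the filter cannot be told apart. The cause was not tested. *Nfkb1* changed sign between O-WT CLPs and GMPs under upper quartile scaling (0.014) and between O-NR CLPs and GMPs with the receptor-gene covariate (0.10), and its call was lost without CLP O-WT replicates 2 or 3 or GMP O-WT replicate 2 (-0.48 to -0.31). In O-NR the calls lost without 1 library were *Nfkb1* between CLPs and GMPs (6 of 12 fits, -0.43 to -0.27) and *Tnfaip3* against GMPs (2 of 12 in HSCs, without HSC replicate 3 or GMP replicate 2, 0.43 to 0.44, and 8 of 12 in CLPs, 0.34 to 0.44).

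With the mouse as a replicate block, the number called between CLPs and GMPs was 5 in O-WT and 4 in O-NR, the lost member being *Nfkb1* (adjusted p = 0.0579 and 0.066), and no other call changed. O-NR and O-WT mice share only numbers: the correlation of same-numbered libraries was -0.35 to 0.65 in HSCs, and the block called no member. In cohort 1 the block gave *Nfkb2* 0.01 (reported -0.18) and *Nfkbia* 0.064 (reported -0.30) for O-NR-RC against O-NR, and *Nfkbia* -0.45 (reported 0.13) for O-NR against O-WT.

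Cohort 1 directions were unstable. For O-NR against O-WT *Nfkb2* was 0.30 without the 4 libraries and 0.001 with the covariate (reported -0.08), and ranged from -0.28 to 0.068 without 1 library; *Nfkbia* ranged from -0.28 to 0.39. For O-NR-RC against O-NR they ranged from -0.46 to 0.017 and from -0.78 to 0.11. For O-NR-RC against O-WT *Nfkb2* was 0.056 without the 4 libraries, with -0.54 to -0.07 without 1 library, and *Nfkbia* was 0.36 without the 4 libraries and 0.024 with the covariate, with -0.65 to 0.063 without 1 library. The lowest GMP libraries held 36 reads of *Relb* and 37 of *Traf1*, which limits the precision of both.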

Other observations

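Markers of other cells were low in the sorted HSCs of cohort 2, where 7 neutrophil genes summed to 9.39 to 16.0 CPM, 6 monocyte genes to 9.14 to 27.2 CPM, 6 T and NK cell genes to 9.37 to 16.6 CPM, 6 mature B and plasma cell genes to 24 to 60.2 CPM and 6 erythroid genes to 4.95 to 16.4 CPM. In GMPs the monocyte genes summed to 183 to 376 CPM in O-WT and 180 to 465 CPM in O-NR. The T and NK cell genes there summed to 98 to 129 CPM in O-WT and 83.8 to 141 CPM in O-NR, beside 27.5 to 42.1 CPM in O-WT CLPs. In CLPs the mature B and plasma cell genes summed to 101 to 151 CPM in O-WT and 105.1 to 156.5 CPM in O-NR. The part of these cells in the member values was not tested. The 4 megakaryocyte genes summed to 92.6 to 144 CPM in HSCs and 9.64 to 22.5 CPM in CLPs, and the 5 dendritic genes to 455 to 785 CPM in CLPs and 50.8 to 151 CPM in GMPs. The dendritic list holds *Flt3*, which is also in the list of CLP markers, so its sum in CLPs is not a measure of dendritic cells alone. No listed marker was at 0 in every library of a group. In cohort 1 HSCs the HSC markers summed to 590.5 to 1744 CPM.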
